A study of Mus musculus with 6 samples.

Results

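The subject is a set of 27 genes of cholesterol and isoprenoid synthesis and its control by the sterol regulatory element binding protein SREBP, chosen by gene name from the 34745 genes of the deposited table. All 27 were found there, and all 27 passed the filter on low counts. Gene expression was measured by RNA sequencing in mouse spermatogonial stem cells kept in culture, which are the testis cells from which sperm arise. The BPA group was 3 libraries from cultures given 100 µM bisphenol A, a plastics monomer, for about 4 days, and the untreated group was 3 libraries of the same kind of culture without it. Both groups share the strain label DBA/2J X c57BL/6J, an age of postnatal day 6 and passages 15 to 20. The labels name no vehicle, so BPA and its solvent, if one was used, cannot be told apart. They do not say whether replicates were separate cultures, so each p-value reflects the spread among these 6 libraries alone, and that spread may be technical.

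Cells build cholesterol from acetyl-CoA. The mevalonate pathway makes isoprenoid units, these are joined to farnesyl diphosphate and then to squalene, and squalene is closed to lanosterol and trimmed to cholesterol in the endoplasmic reticulum. When membrane sterol is low, SCAP carries SREBP2 to the Golgi apparatus, where it is cleaved into an active transcription factor that switches on most genes of the pathway, and INSIG proteins hold SCAP back when sterol is plentiful. In the testis, sterols serve membranes, steroid hormones and the meiosis-activating sterols that lie between lanosterol and cholesterol.

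Library totals were 14232872 to 22286517 counts in BPA and 13453280 to 19183912 counts in untreated cultures. The summed level of 14 spermatogonial stem cell markers was 1747 to 1994 CPM (counts scaled to library size) in BPA and 1999 to 2140 CPM in untreated libraries, with none of the 14 at 0 throughout. Of these 14 genes 4 fell (Id4, Nanos3, Pou5f1 and Uchl1) and 1 rose (Sall4), by the test described below. Over all tested genes 6.28% fell and 4.37% rose. The sum over 10 fibroblast markers, as from feeder cells, was 209 to 308 CPM in BPA and 284 to 343 CPM in untreated libraries. Of these 10, 3 were under 1 CPM in every library, with S100a4 at 0. The sum over 9 Sertoli cell markers was 130 to 146 CPM in BPA and 43.6 to 54.3 CPM in untreated libraries. Of these 9, 5 were under 1 CPM in every library, with Rhox5 and Fshr at 0, and of the 4 tested genes Sox9 and Clu rose. The 6 Leydig cell markers, which include the steroid-forming enzymes, summed to 1.03 to 1.44 CPM in BPA and 0 to 0.938 CPM in untreated libraries, and 4 of them (Cyp17a1, Lhcgr, Hsd3b1 and Insl3) were at 0. The 5 macrophage markers summed to 32.8 to 40.7 CPM in BPA and 53.5 to 57.7 CPM in untreated libraries. Of these 5, 3 were under 1 CPM in every library, so the sum rests on few genes, and neither of the 2 tested passed. The part of these marker levels in the results below was not tested. In bulk RNA, fewer cells of a type and less RNA per cell cannot be told apart.

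Most of the sterol genes had a lower mean under BPA. Of the 27 genes, 8 fell, 1 rose and 18 did not pass the test. The genes that fell were Acat2 and Mvk of the mevalonate pathway, Fdft1 and Lss around squalene, Nsdhl and Dhcr7 of the late steps, the regulator gene Srebf2 and the sterol carrier gene Npc2. The gene that rose was Npc1, a lysosomal cholesterol exporter. Tests were edgeR's quasi-likelihood test on the deposited counts, with p-values adjusted over all 13287 tested genes, and "rose" and "fell" mean an adjusted p under 0.05. Lower calls made up 29.6% of the 27 genes and 6.28% of all tested genes, and higher calls 3.7% and 4.37%. The log2 fold change of BPA over untreated was negative for 21 of 27 genes, beside 44.6% of all tested genes, and its median over them was -0.66, against a median of 0.10 over all tested genes. All 3 BPA values lay below all 3 untreated values for 14 of the 27 genes and above them for 2, beside 15.7% and 15.6% of all tested genes. Values below are CPM after scaling by the trimmed mean of M-values (TMM), and a standard error (SE) follows each log2 fold change.

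**Figure D1:**
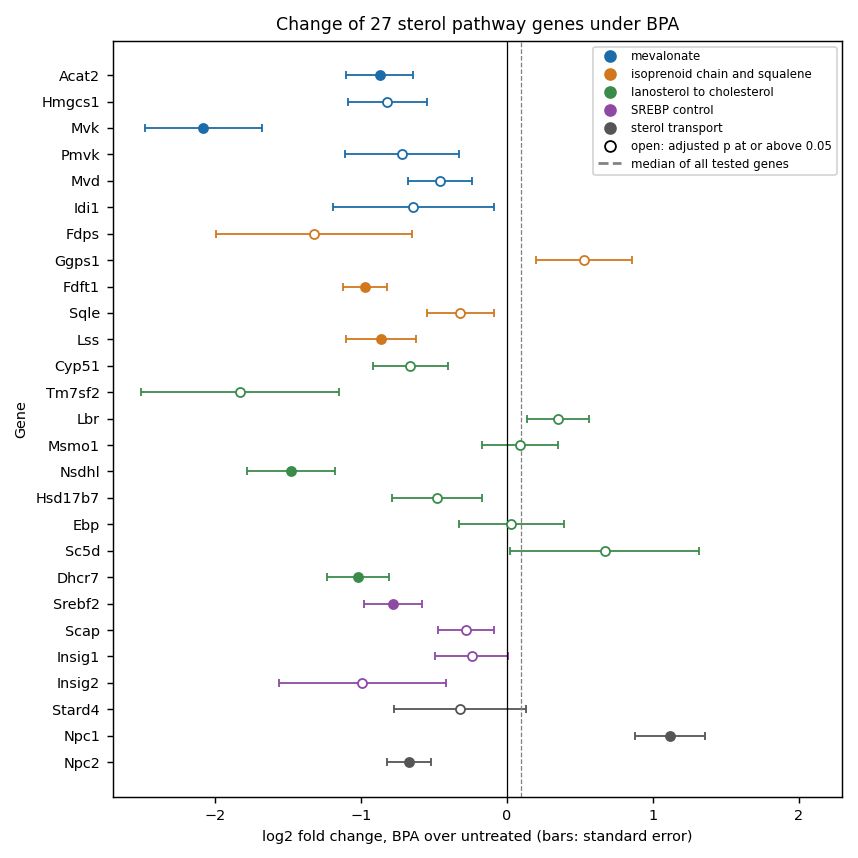
The log2 fold change of BPA over untreated (horizontal axis) with its standard error for the 27 genes (vertical axis), coloured by role, filled where the adjusted p was under 0.05. The filled points are 8 genes left of 0, from Mvk at -2.08 to Npc2 at -0.67, and Npc1 at 1.12, and the dashed line is the median of all tested genes at 0.10.

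Promoter windows of 4 of the genes are shown, for these reasons. Mvk and Nsdhl had the largest falls among the genes that passed the test. Hmgcs1 was the one gene with a match to the longer sterol element among the 22 with a window. Srebf2 encodes SREBP2, which is known to switch on most genes of the pathway. The windows run from 250 bases before to 50 bases after the gene's start in RefSeq (GRCm38.p6, the mm10 build), all on the plus strand, at chr5:114444019-114444318 for Mvk, chrX:72918271-72918570 for Nsdhl, chr13:119690101-119690400 for Hmgcs1 and chr15:82147019-82147318 for Srebf2. Capitals mark the NF-Y box CCAAT on either strand and the short sterol element core CACNCCAC on either strand.
Mvk: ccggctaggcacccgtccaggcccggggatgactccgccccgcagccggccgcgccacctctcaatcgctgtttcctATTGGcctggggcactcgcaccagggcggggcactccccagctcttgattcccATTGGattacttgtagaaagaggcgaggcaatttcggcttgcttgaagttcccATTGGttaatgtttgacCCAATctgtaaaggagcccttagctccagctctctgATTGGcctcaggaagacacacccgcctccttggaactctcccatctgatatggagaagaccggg
Nsdhl: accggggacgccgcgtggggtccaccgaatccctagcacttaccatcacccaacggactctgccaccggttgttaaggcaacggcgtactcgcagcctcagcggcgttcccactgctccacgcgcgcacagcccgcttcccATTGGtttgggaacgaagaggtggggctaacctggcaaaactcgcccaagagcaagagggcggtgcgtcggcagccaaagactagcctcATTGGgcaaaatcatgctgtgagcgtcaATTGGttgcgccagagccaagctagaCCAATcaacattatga
Hmgcs1: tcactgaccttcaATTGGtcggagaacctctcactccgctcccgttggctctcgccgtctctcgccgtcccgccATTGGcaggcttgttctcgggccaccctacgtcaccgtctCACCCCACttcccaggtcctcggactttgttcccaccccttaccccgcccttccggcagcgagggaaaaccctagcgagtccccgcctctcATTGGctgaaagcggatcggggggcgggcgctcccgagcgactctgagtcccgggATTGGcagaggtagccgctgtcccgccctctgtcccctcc
Srebf2: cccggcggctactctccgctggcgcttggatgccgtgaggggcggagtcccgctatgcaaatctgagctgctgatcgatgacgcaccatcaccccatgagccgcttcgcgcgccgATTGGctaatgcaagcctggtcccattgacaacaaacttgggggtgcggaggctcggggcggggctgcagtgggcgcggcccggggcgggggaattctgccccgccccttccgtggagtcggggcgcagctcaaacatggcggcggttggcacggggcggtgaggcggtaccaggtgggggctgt

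The Mvk window held 5 CCAAT boxes, those of Nsdhl and Hmgcs1 4 each and that of Srebf2 1. NF-Y, the factor that binds CCAAT, is known as a partner of SREBP at sterol genes. Windows were found for 22 of the 27 genes, and none for Fdft1, Fdps, Npc1, Sqle and Stard4. Some genes had more than 1 window, 28 in all. On either strand, CCAAT occurred in a window of 20 of the 22 genes (90.9%), against 43.2% of 9933 tested genes with a window and 41.1% of 27025 genes in the RefSeq table. The genes without it were Acat2 and Scap. Counted by window, CCAAT occurred in 20 of the 28 (71.4%), against 37.4% of 32851 windows in the RefSeq table. The GC box GGGCGG, which Sp1 binds, occurred in 20 of the 22 (90.9%), against 70.4% of the tested and 38.2% of all genes. The sterol element TCACNCCAC occurred in Hmgcs1 alone (4.55% of the 22, against 1.44% of tested and 1.44% of all genes). Its shorter core CACNCCAC lies within it and occurred in Hmgcs1, Acat2 and Insig1 (13.6%, against 7.85% of tested and 7.12% of all genes). The element TGATGNAAT, bound by the stress factor ATF4, occurred in 0 of the 22 and in 0.534% of tested and 1.08% of all genes. A match describes the letters of the window and is not a binding site. A gene with no match may have a site elsewhere, or one in its window whose letters differ from the pattern.

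The mevalonate pathway runs from acetyl-CoA to the isoprenoid unit, and the set holds 6 of its genes but not all. All 6 had negative log2 fold changes, with a median of -0.77. Of the 6, 2 fell and 4 did not pass the test, beside 6.28% of all tested genes that fell. In 5 of the 6 all BPA values lay below the untreated ones, beside 15.7% of all tested genes. Acat2 encodes the cytosolic thiolase that joins acetyl-CoA units. It had 36.9, 38.7 and 31.9 CPM in BPA replicates 1 to 3, against 73.1, 49.5 and 73.7 CPM in untreated replicates 1 to 3. The BPA libraries were close together, and the untreated one nearest to them was replicate 2. Acat2 fell by 0.87 on the log2 scale (SE 0.23, adjusted p = 0.0307), and missed the threshold without any single library other than BPA replicate 2 or untreated replicate 2 (adjusted p 0.0986 to 0.151). Of the 50-base stretches of its longest transcript 45.9% also occur in transcripts of Acat3 or Tcp1, so its value is uncertain where reads were split. Acat3 was at 1.55 ± 1.22 CPM in BPA and 4.22 ± 0.700 CPM in untreated cultures (SD, n = 3 each), and Tcp1 was at 242 ± 21.7 CPM in BPA and 286 ± 35.3 CPM in untreated cultures, neither past the test.

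Mvk encodes mevalonate kinase, which adds the first phosphate to mevalonate (ENSMUSG00000041939, chromosome 5, 114444269 to 114460591, mm10). It had 4.19, 11.3 and 4.81 CPM in BPA replicates 1 to 3, against 32.8, 28.2 and 25.3 CPM in untreated replicates 1 to 3. Replicate 2 was the highest BPA library and still under the lowest untreated one. Mvk fell by 2.08 on the log2 scale (SE 0.40, adjusted p = 0.00735), the largest change among the genes that passed. Without untreated replicate 1 it missed the threshold (-1.98, adjusted p = 0.0556), and without BPA replicate 2 it was at -2.67 (adjusted p = 0.000195).

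Hmgcs1 encodes HMG-CoA synthase, a classical SREBP target, and its window holds both motifs. It had 45.6, 24.5 and 46.4 CPM in BPA replicates 1 to 3, against 62.7, 60.3 and 83.0 CPM in untreated replicates 1 to 3. The groups did not overlap, and BPA replicate 2 was lowest. Its log2 fold change of -0.82 (SE 0.27) missed the threshold at an adjusted p of 0.071. It passed once library values were adjusted for gene length and GC content (-1.11, adjusted p = 0.000819) and in DESeq2 (-0.84, adjusted p = 0.0195), with adjusted p at 0.000819 to 0.282 over the alternatives. In DESeq2 10 of the 27 genes were lower and 1 higher, beside 9.24% and 7.06% of all tested genes. The phosphomevalonate kinase gene Pmvk averaged 7.33 ± 1.82 CPM in BPA and 12.1 ± 2.08 CPM in untreated cultures. The decarboxylase gene Mvd averaged 64.9 ± 18.3 CPM in BPA and 89.5 ± 2.80 CPM in untreated cultures (SD, n = 3 each). Neither passed (-0.72, SE 0.39, and -0.46, SE 0.22), although the groups did not overlap for either, and Mvd passed as lower without BPA replicate 2 (-0.68, adjusted p = 0.0175). Idi1, the isomerase of the isoprenoid units, overlapped between groups (-0.64, SE 0.55), and 30.5% of its transcript's 50-base stretches occur in other genes, which makes its value uncertain.

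The next enzymes extend the isoprenoid chain and commit it to sterols. Of these 5 genes 2 fell, beside 6.28% of all tested genes, and their median log2 fold change was -0.86. Fdft1 encodes squalene synthase, the first enzyme used by sterols alone (ENSMUSG00000021273, chromosome 14, 63145153 to 63177793). It had 158, 207 and 176 CPM in BPA replicates 1 to 3, against 346, 350 and 362 CPM in untreated replicates 1 to 3. The untreated libraries lay within a narrow range and every BPA library was far below it. Fdft1 was the one gene of the set that kept its call without each of the 6 libraries in turn, at -1.07 to -0.87 (adjusted p 4.43e-05 to 0.0216). Of its exon length in the GENCODE vM21 annotation 18.3% overlaps Ctsb on the opposite strand, and the library kit does not mark strand. That annotation gives Fdft1 a locus that differs from the deposited one, so the share is approximate. Of the 50-base stretches of its transcript 30.7% also occur in transcripts of Ctsb or Gm6781, so its value is uncertain where reads were split or shared. Ctsb was at 395 ± 32.2 CPM in BPA and 301 ± 13.6 CPM in untreated cultures, with a positive fold change that did not pass (0.39, SE 0.14, adjusted p = 0.0937).

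Lss encodes lanosterol synthase, which closes squalene epoxide into the ring system. It had 35.6, 47.3 and 32.5 CPM in BPA replicates 1 to 3, against 52.8, 79.5 and 76.6 CPM in untreated replicates 1 to 3. The closest pair was BPA replicate 2 and untreated replicate 1, and the groups did not overlap. Lss fell by 0.86 on the log2 scale (SE 0.24, adjusted p = 0.0391), and without any single library other than BPA replicate 2 it missed the threshold (adjusted p 0.0655 to 0.166). Sqle, the squalene epoxidase that is known as a rate-limiting step, did not pass. It had 29.5, 33.1 and 41.5 CPM in BPA replicates 1 to 3, against 43.1, 44.3 and 42.9 CPM in untreated replicates 1 to 3. All BPA values were below the untreated ones but replicate 3 nearly reached them (-0.32, SE 0.23, adjusted p = 0.414).

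The enzymes that make the farnesyl and geranylgeranyl chains also supply protein prenylation. Fdps had 51, 60 and 28 counts in BPA replicates 1 to 3 and 56, 94 and 112 counts in untreated replicates 1 to 3, too few for a firm value (-1.32, SE 0.67). Of the exon length of Fdps 26.7% overlaps Gm43738, and 11.7% of its transcript's 50-base stretches occur in other genes. Its level is therefore uncertain too. Ggps1, the geranylgeranyl diphosphate synthase, was the one enzyme of the 5 on the higher side. It had 13.0, 14.6 and 16.4 CPM in BPA replicates 1 to 3, against 11.0, 8.71 and 10.7 CPM in untreated replicates 1 to 3. The groups did not overlap, yet the change of 0.53 (SE 0.33) did not pass (adjusted p = 0.355). Fdps and Ggps1 therefore stood on opposite sides of 0, a difference that was not tested.

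Of the 9 genes of the set from lanosterol to cholesterol 2 fell and 7 did not pass, with a median of -0.48. Over all tested genes 6.28% fell. Nsdhl encodes the dehydrogenase that removes the methyl groups at the fourth carbon of the ring (ENSMUSG00000031349, chromosome X, 72918557 to 72958514). It had 15.8, 19.1 and 19.7 CPM in BPA replicates 1 to 3, against 60.4, 30.9 and 61.1 CPM in untreated replicates 1 to 3. Untreated replicate 2 lay between the BPA libraries and the other 2 untreated ones, and the groups did not overlap. Nsdhl fell by 1.48 on the log2 scale (SE 0.30, adjusted p = 0.00872), and missed the threshold without untreated replicate 1 (-1.33, adjusted p = 0.0706) or untreated replicate 3 (-1.29, adjusted p = 0.0565). Dhcr7 encodes the reductase of the last step and the gene had 79.7, 123 and 74.0 CPM in BPA replicates 1 to 3, against 213, 179 and 169 CPM in untreated replicates 1 to 3. BPA replicate 2 was again the nearest to the untreated range. Dhcr7 fell by 1.02 on the log2 scale (SE 0.21, adjusted p = 0.01), and missed the threshold without BPA replicate 1 (-0.92, adjusted p = 0.0578) or untreated replicate 1 (-0.91, adjusted p = 0.0791).

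The genes of enzymes that work with Nsdhl in the same demethylation did not pass the test. Msmo1, the methyl oxidase that acts just before it, had 28.1, 22.4 and 29.4 CPM in BPA replicates 1 to 3, against 22.5, 28.4 and 24.2 CPM in untreated replicates 1 to 3. The groups overlapped (0.09, SE 0.26, adjusted p = 0.872). Hsd17b7, the ketoreductase that acts just after it, averaged 14.8 ± 2.07 CPM in BPA and 20.7 ± 4.70 CPM in untreated cultures (-0.48, SE 0.31, adjusted p = 0.362). Cyp51, the demethylase that opens the late pathway, averaged 39.0 ± 10.2 CPM in BPA and 61.5 ± 14.2 CPM in untreated cultures (-0.66, SE 0.26, adjusted p = 0.138), with no overlap between groups. It passed as lower after the GC and length correction (-0.95, adjusted p = 0.00684).

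Tm7sf2 and Lbr encode proteins that both carry the sterol reductase activity that follows Cyp51, and Lbr is also a lamin receptor of the nuclear envelope. They stood on opposite sides of 0 and neither passed. Tm7sf2 had 1.18, 3.27 and 1.02 CPM in BPA replicates 1 to 3, against 6.19, 8.55 and 4.72 CPM in untreated replicates 1 to 3, a difference of -1.83 (SE 0.68, adjusted p = 0.112) with no overlap. Lbr had 119, 73.9 and 98.3 CPM in BPA replicates 1 to 3, against 66.0, 72.6 and 89.3 CPM in untreated replicates 1 to 3 (0.35, SE 0.21, adjusted p = 0.333). Without BPA replicate 2, Tm7sf2 passed as lower (-2.55, adjusted p = 0.0293) and Lbr as higher (0.52, adjusted p = 0.0496). After the GC and length correction Lbr was at -0.01. Ebp, the sterol isomerase, and Sc5d, the desaturase before Dhcr7, were at 0.03 (SE 0.36) and 0.67 (SE 0.65) with overlapping groups, and Sc5d had only 17 counts in untreated replicate 1.

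**Figure D2:**
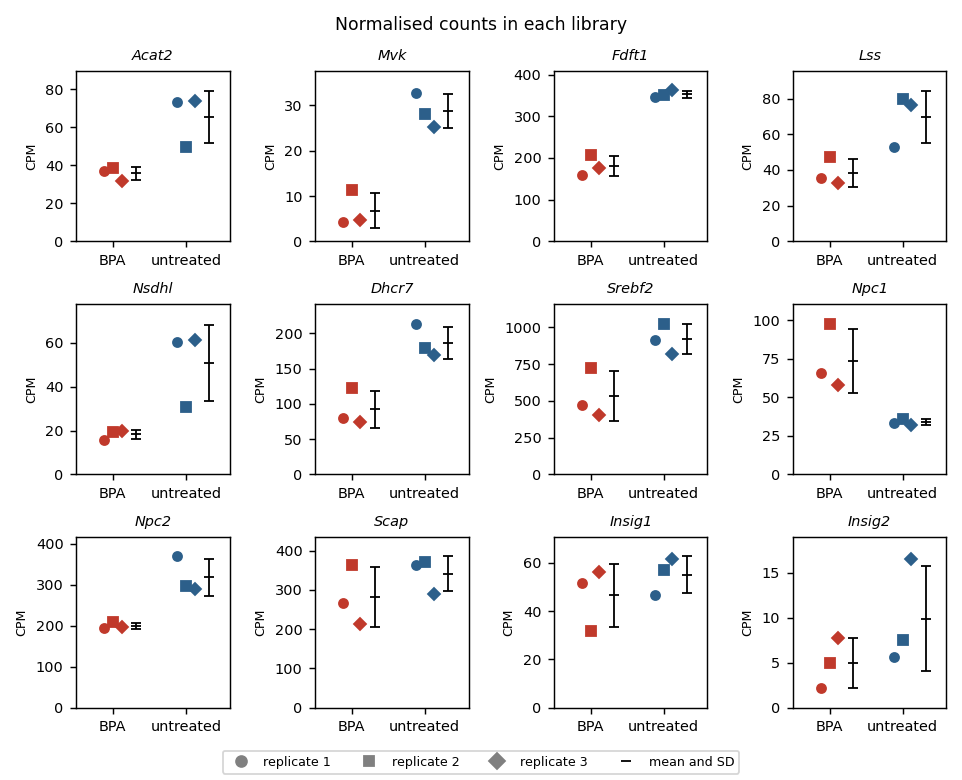
TMM-scaled CPM (vertical axis, from 0) of the 9 genes that passed the test and of Scap, Insig1 and Insig2 in each library, BPA left and untreated right, with mean and SD beside the points. The 3 BPA values of Fdft1 lie at 158 to 207 CPM below untreated values of 346 to 362 CPM, Npc1 is the one gene with all BPA values above the untreated ones, and Scap, Insig1 and Insig2 overlap.

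Among the regulators, the gene of the transcription factor fell and those of its escort and anchors did not pass. Srebf2, which encodes SREBP2 (ENSMUSG00000022463, chromosome 15, 82147266 to 82205376), had 473, 725 and 402 CPM in BPA replicates 1 to 3, against 912, 1021 and 818 CPM in untreated replicates 1 to 3. BPA replicate 2 was the library nearest to the untreated range. Srebf2 fell by 0.78 on the log2 scale (SE 0.20, adjusted p = 0.0272). Without BPA replicate 2 the change was -1.07 (adjusted p = 7.59e-05). It missed the threshold without BPA replicate 1 (-0.70, adjusted p = 0.119), BPA replicate 3 (-0.61, adjusted p = 0.0935), untreated replicate 1 (-0.78, adjusted p = 0.112) or untreated replicate 2 (-0.69, adjusted p = 0.134).

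Scap, the escort of SREBP, had 268, 364 and 213 CPM in BPA replicates 1 to 3, against 363, 371 and 290 CPM in untreated replicates 1 to 3. The ranges overlapped through BPA replicate 2 (-0.28, SE 0.19, adjusted p = 0.412), and without that library Scap passed as lower (-0.50, adjusted p = 0.0223). Insig1, an anchor whose own gene is a sensitive SREBP target, had 51.7, 31.6 and 56.3 CPM in BPA replicates 1 to 3, against 46.8, 56.8 and 61.8 CPM in untreated replicates 1 to 3. BPA replicates 1 and 3 lay inside the untreated range and replicate 2 below it (-0.24, SE 0.25, adjusted p = 0.592). Insig2, the second anchor, had 2.16, 4.91 and 7.79 CPM in BPA replicates 1 to 3, against 5.59, 7.53 and 16.6 CPM in untreated replicates 1 to 3 (-0.99, SE 0.57, adjusted p = 0.31).

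The genes of sterol transport went both ways. NPC2 takes cholesterol from lysosomal vesicles and hands it to NPC1, which moves it to the membrane. Npc1 had 65.9, 97.3 and 57.7 CPM in BPA replicates 1 to 3, against 33.2, 35.9 and 32.2 CPM in untreated replicates 1 to 3. Every BPA library was well above the narrow untreated range. Npc1 rose by 1.12 (SE 0.24, adjusted p = 0.0112) and missed the threshold without untreated replicate 1 (1.11, adjusted p = 0.0732). It also missed it after the GC and length correction (0.70, adjusted p = 0.131), where its BPA values were 53.1, 101 and 41.6 CPM against 40.9, 46.5 and 33.4 CPM in untreated cultures, and the groups overlapped.

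Npc2 had 194, 209 and 197 CPM in BPA replicates 1 to 3, against 370, 296 and 288 CPM in untreated replicates 1 to 3. The BPA libraries differed little among themselves and all were below the untreated ones. Npc2 fell by 0.67 on the log2 scale (SE 0.15, adjusted p = 0.016), and missed the threshold without any single library other than BPA replicate 2 or untreated replicate 3 (adjusted p 0.0533 to 0.117). Stard4, a sterol carrier of the cytosol and a known SREBP target, had 11.3, 4.81 and 16.6 CPM in BPA replicates 1 to 3, against 11.9, 17.5 and 11.5 CPM in untreated replicates 1 to 3. The groups overlapped (-0.32, SE 0.45, adjusted p = 0.711).

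Per unit of length, in the FPKM values that the authors deposited, Srebf2 was the most abundant of the 27 genes, at 109 ± 24.8 FPKM in BPA and 177 ± 15.8 FPKM in untreated cultures (SD, n = 3 each). Fdft1 followed at 65.1 ± 4.93 FPKM in BPA and 119 ± 5.82 FPKM in untreated cultures, and Npc2 at 63.5 ± 3.10 FPKM in BPA and 93.8 ± 12.2 FPKM in untreated cultures. The levels of Fdft1 and Npc2 did not differ beyond their spread in BPA cultures. Tm7sf2 and Fdps were the least abundant, at 0.255 ± 0.153 and 0.447 ± 0.208 FPKM in BPA and 0.872 ± 0.243 and 1.05 ± 0.477 FPKM in untreated cultures. The genes that passed the test as lower had mean untreated levels of at least 28.7 CPM, while the genes that did not pass reached down to 4.51 CPM, where changes of this size are harder to detect. Shares of 50-base stretches found in other genes were 13.6% for Hmgcs1, 13.1% for Scap, 11.8% for Ggps1 and 11.3% for Lbr. Of the exon length of Tm7sf2 12.1% overlaps Vps51, and of that of Fdps 26.7% overlaps Gm43738. The low ranks of Tm7sf2 and Fdps are uncertain to that extent.

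BPA replicate 2 was the lowest or the highest BPA library for most genes, in the set and over all tested genes alike. It had the lowest BPA value for 8 of the 27 genes, among them Hmgcs1, Cyp51, Idi1, Insig1 and Stard4, and the highest for 14, among them Srebf2, Scap, Mvk, Dhcr7, Fdft1 and Npc1. Over all tested genes it was the lowest for 35.1% and the highest for 45.0%. The 8 genes had a median GC content of 44.1% and the 14 of 51.6%, against 45.3% and 54.4% over all tested genes placed in the same way. The 8 genes that fell had a median GC content of 51.6% and the 18 without a call 46.1%. Over all tested genes, those that fell had 54.2% and those without a call 50.2%. With library values adjusted for gene length and GC content, 10 of the 27 genes were lower and 0 higher, beside 9.29% and 6.77% of all tested genes, with Hmgcs1 and Cyp51 added to the 8 that fell and Npc1 lost. The corrected Hmgcs1 values were 35.9, 33.1 and 33.8 CPM in BPA replicates 1 to 3, against 70.3, 69.0 and 83.2 CPM in untreated replicates 1 to 3. Insig1 and Stard4 did not pass after the correction either (-0.41 and -0.78, adjusted p = 0.2 and 0.182).

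**Figure D3:**
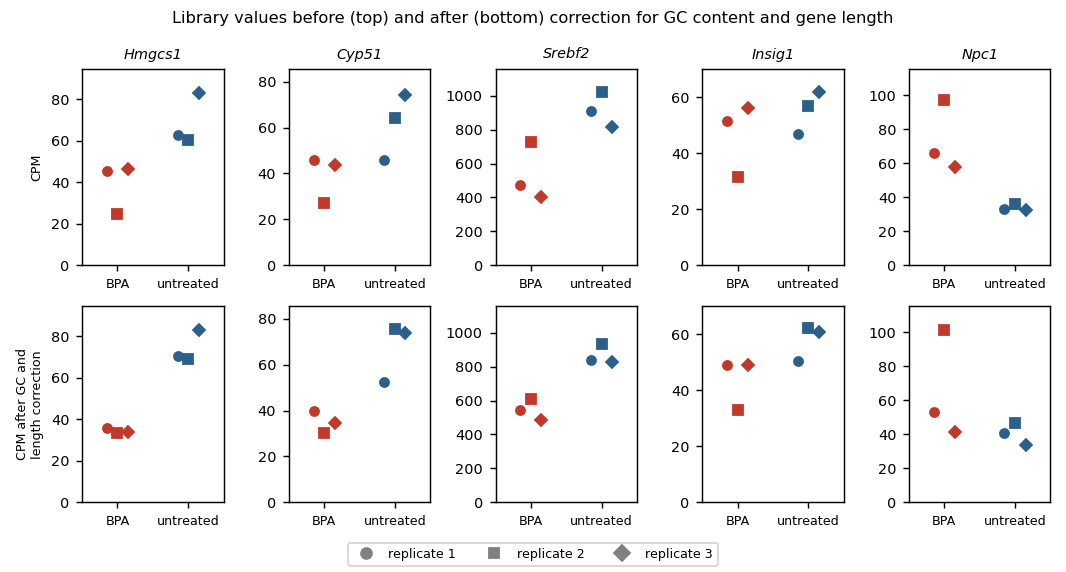
CPM in each library (vertical axis, from 0) for 5 genes before (top) and after (bottom) adjustment for gene length and GC content, BPA left and untreated right. The BPA values of Hmgcs1 draw together to 33.1 to 35.9 CPM after the correction, while those of Npc1 spread to 41.6 to 101 CPM and meet the untreated ones.

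Leaving out libraries changed the number of calls. Without untreated replicate 1 only Fdft1 passed as lower and no gene as higher, beside 2.06% and 1.18% of all tested genes. Omitting untreated replicate 2 gave 5 lower and 1 higher (2.31% and 1.41% of all tested genes), and omitting untreated replicate 3 gave 5 and 1 (3.44% and 2.44%). Omitting BPA replicate 1 gave 3 lower and 1 higher (2.51% and 1.64% of all tested genes), and omitting BPA replicate 3 gave 4 and 1 (3.08% and 2.15%). All 9 calls were kept without BPA replicate 2, where 11 genes were lower and 2 higher, with Lbr, Mvd, Scap and Tm7sf2 added, beside 11.7% lower and 8.81% higher calls over all tested genes. The median log2 fold change of the 27 genes stayed negative without each library, at -0.69 to -0.42. It was -0.53 with scaling by library size alone, a scaling that moved the median of all tested genes to 0.21 from 0.10 and gave 786 lower and 831 higher genes in all (5.92% and 6.25%), against 835 and 580 with TMM. The same 9 genes passed under that scaling. With a replicate block 9 were lower and 1 higher, beside 7.41% and 5.43% of all tested genes.

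**Figure D4:**
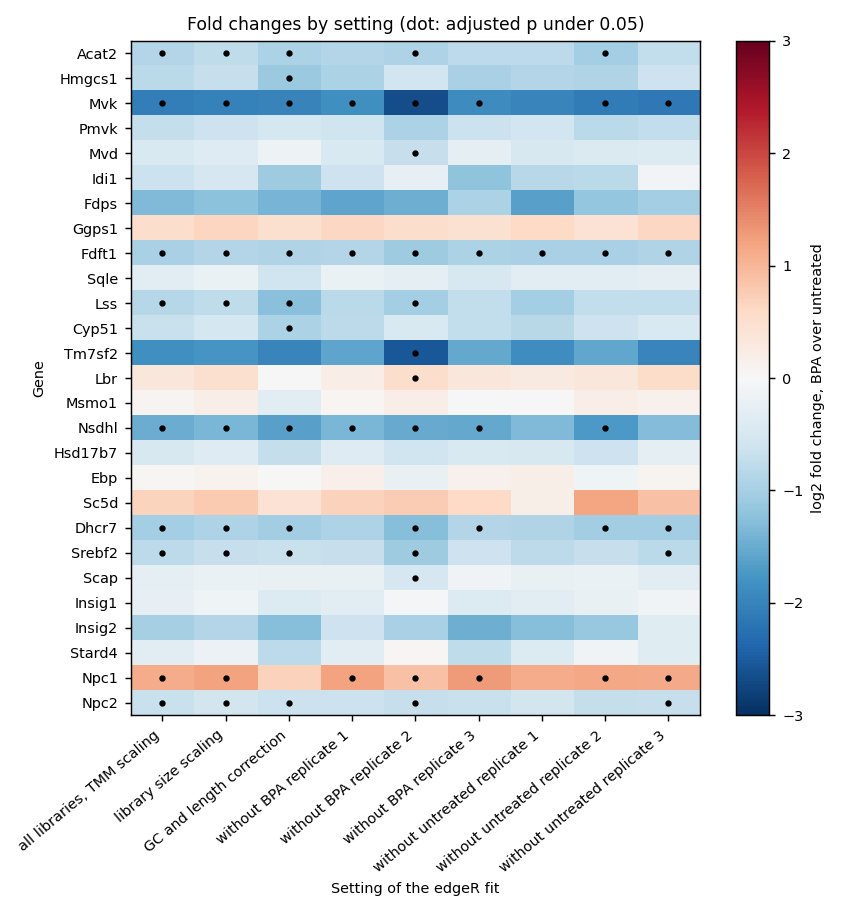
The log2 fold change of BPA over untreated (colour) for the 27 genes (rows) under 9 settings of the edgeR fit (columns), with a dot where the adjusted p was under 0.05. Fdft1 has a dot in every column, and the column without untreated replicate 1 has no other dot.

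Genes that neighbour the pathway were described in the same fit, from 6 lists. Of 11 genes of SREBP processing and sterol-regulated protein turnover, 2 rose and none fell in edgeR, with a median of 0.22. Over all tested genes 4.37% rose and 6.28% fell. At an unadjusted p under 0.05, 0 of the 11 were lower and 4 higher, beside 12.5% and 12.8% of all tested genes. In DESeq2 0 were lower and 2 higher, beside 9.24% and 7.06% of all tested genes. Rnf139, which encodes a sterol-sensing ubiquitin ligase of the endoplasmic reticulum, had 34.4, 15.2 and 20.1 CPM in BPA replicates 1 to 3, against 4.49, 6.91 and 9.51 CPM in untreated replicates 1 to 3 (1.74, SE 0.41, adjusted p = 0.0201). Every BPA value was above every untreated one, and Rnf139 kept its call in 3 of the 6 fits with a library left out (adjusted p up to 0.124). Of the exon length of Rnf139 26.2% overlaps other genes, among them Tatdn1 on the opposite strand, and 29.3% of its 50-base stretches occur in other transcripts, so its value is uncertain too. Tatdn1 was at 2.28 ± 1.47 CPM in BPA and 0.213 ± 0.253 CPM in untreated cultures (SD, n = 3 each) and did not pass (adjusted p = 0.16). Srebf1, which encodes the related factor of fatty acid synthesis, overlapped between groups (-0.15, SE 0.21).

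Of 12 tested genes of sterol uptake and trafficking 2 fell and 2 rose (16.7% each), with a median of -0.06. Over all tested genes 6.28% fell and 4.37% rose. Tmem97, a sterol-regulated membrane protein that binds NPC1, had 220, 242 and 198 CPM in BPA replicates 1 to 3, against 425, 381 and 431 CPM in untreated replicates 1 to 3. It fell by 0.91 on the log2 scale (SE 0.14, adjusted p = 0.00216) and kept its call without each library. Of its 50-base stretches 20.8% also occur in Gm5809, which leaves its value uncertain to that extent. Scarb1, a receptor for high-density lipoprotein, fell by 0.85 on the log2 scale (SE 0.19, adjusted p = 0.014). Vldlr, a lipoprotein receptor, had 16.5, 15.2 and 18.9 CPM in BPA replicates 1 to 3, against 1.37, 1.57 and 0 CPM in untreated replicates 1 to 3. It rose by 4.09 (SE 0.79, adjusted p = 0.00735) and kept its call without each library. Osbp, a sterol exchanger at the Golgi apparatus, rose by 1.05 (SE 0.28, adjusted p = 0.0345). Scarb1 and Osbp each lost the call without some single libraries (adjusted p up to 0.0773 and 0.128).

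Of 7 genes on the acetyl-CoA side 1 fell (14.3%, beside 6.28% of all tested genes), with a median of -0.12. It was Slc25a1, the carrier that exports citrate from mitochondria for acetyl-CoA synthesis, with 107, 139 and 103 CPM in BPA replicates 1 to 3, against 325, 322 and 244 CPM in untreated replicates 1 to 3. It fell by 1.35 on the log2 scale (SE 0.18, adjusted p = 0.000713) and kept its call without each library. The next enzyme, encoded by Acly, was at 0.04 (SE 0.13). Of 12 tested genes of LXR receptors, sterol export, esters and oxysterols 1 fell (8.33%, beside 6.28% of all tested genes), with a median of 0.49. It was the receptor gene Nr1h2 (-0.87, SE 0.21, adjusted p = 0.0204), which kept its call in 1 of the 6 fits with a library left out. None of the 12 was higher in edgeR, against 2 in DESeq2 and 2 at an unadjusted p under 0.05. The shares of all tested genes were 4.37%, 7.06% and 12.8%. Of 14 prenyl transfer, ubiquinone and dolichol genes 0 passed in edgeR, and the most abundant, Rce1 and Icmt, were at -0.39 (SE 0.18) and -0.55 (SE 0.17). At an unadjusted p under 0.05, 2 of the 14 were lower and 1 higher, beside 12.5% and 12.8% of all tested genes. DESeq2 called 2 lower, beside 9.24% of all tested genes. Of 9 electron donors and partners of sterol enzymes 0 passed in edgeR, and the most abundant, Por and Cyb5r3, were at 0.19 (SE 0.15) and -0.06 (SE 0.18). At an unadjusted p under 0.05, 2 of the 9 were higher, and DESeq2 called 1 higher, beside 12.8% and 7.06% of all tested genes.

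**Figure D5:**
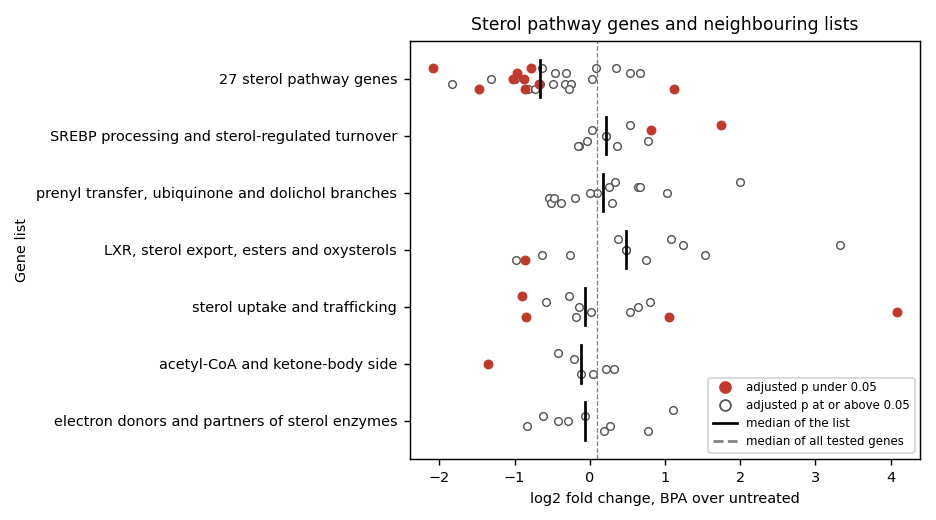
The log2 fold change of BPA over untreated (horizontal axis) for each gene of the sterol set and of 6 neighbouring lists (rows), filled where the adjusted p was under 0.05, with the median of each list as a bar. The bar of the 27 sterol genes is at -0.66 and those of the other lists lie between -0.12 and 0.49, around the dashed median of all tested genes at 0.10.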

How the data were processed

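The 6 RNA sequencing libraries, 3 BPA and 3 untreated, were grouped by their titles, and each column was matched by the code in the title. Per the submitters' processing notes, the tools were TopHat2 2.0.9 and HTSeq and the build mm10. The sources used here give no HTSeq version, strand setting or annotation. Per the labels' protocols, libraries were made with the TruSeq RNA kit v2, which does not mark strand. The deposited table holds raw gene counts, which all tests used, and FPKM values made by the authors, which equal counts over gene length and column total to a relative deviation of 9.2e-04. FPKM served for levels between genes and to recover gene lengths.

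Counts were filtered with filterByExpr, TMM-scaled (marker sums were scaled by library total alone) and tested with edgeR 4.0.16 (R 4.3.3) on all genes, with no block and Benjamini-Hochberg adjustment (threshold 0.05). The SE is the size of the log2 fold change over the square root of F. The biological coefficient of variation was 0.44, which limits the detection of modest changes in weakly expressed genes. Alternatives were DESeq2 1.42.0, limma-voom (limma 3.58.1), other scalings and filters, a replicate block, a lowess correction (span 0.3) for GC content and length, and each library left out. GC content came from the longest transcript in GENCODE vM21, which also gave exon overlap and shared 50-base stretches. The locus there equalled the deposited one for 19 of the 27 genes. It differed for the others, Fdft1, Hmgcs1 and Srebf2 among them, so these measures are approximate for them. The test was checked on simulated counts, drawn with edgeR's own estimates of each gene's variability. There a larger share of DESeq2's calls than of edgeR's was false, and edgeR missed most of the smaller changes. Far fewer genes were changed there than passed in these data. The simulation therefore cannot rank the tools on these data. The genes, lists and tests were chosen with earlier results of these data known. All 27 genes were described, with library values for those that passed and for 4 regulators, and the library values of other genes were added after they were seen. From the other lists the rule took up to 4 genes past the threshold, or the 2 most abundant. The values of 1 such gene are not reported here. Srebf1, Acly, Ctsb, Acat3, Tcp1 and Tatdn1 were chosen after their values were seen. Replicates differed by more than sampling noise (chi-square per degree of freedom 18.9 to 84.5).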

Additional observations from a re-analysis of the deposited data

How the results depend on the processing

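Of 27 sterol genes, 8 were lower and 1 higher in edgeR, beside 6.28% and 4.37% of all tested genes. The number higher was 0 after the GC and length correction. Leaving out 1 library at a time gave 1 to 11 genes lower and 0 to 2 higher. Over all tested genes 1415 passed, against 2166 in DESeq2, 2134 after the GC and length correction and 444 to 2807 with 1 library left out. The count of 16 genes whose groups did not overlap was 14 to 16 in the scalings, filters and the GC and length correction, all with 3 libraries a group. Under TMM scaling, 15.7% of all tested genes were lower and 15.6% higher without overlap. The signs of 4 genes without a call turned: Msmo1 was at -0.32 and Lbr at -0.01 after the GC and length correction, Ebp at -0.01 in limma-voom, and with 1 library left out Ebp ran from -0.22 to 0.18 (negative without BPA replicate 2 or untreated replicate 2) and Stard4 from -0.76 to 0.04 (positive without BPA replicate 2). The cause was not tested. No gene that passed in edgeR changed direction in the alternatives run. The replicate block gave 9 genes lower and 1 higher, with Hmgcs1 added. Same-numbered libraries deviated from their group means with correlations of -0.021, 0.06 and 0.066 over genes, for replicates 1 to 3. BPA replicates 2 and 3 correlated best with the untreated library of the same number, and BPA replicate 1 did not. The correlations were small and the labels do not say that the numbers mark pairs, so they were not taken as pairs. With 1 library left out, the group of 2 shares its spread with the other group. Depth limits the values of Fdps, Tm7sf2, Insig2, Sc5d, Idi1 and Pmvk, which had at most 267 counts in any library.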
